A study of Mus musculus with 16 samples.

Results

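Antioxidant defence was followed through 10 genes that make glutathione, remove superoxide and peroxide, or recycle thioredoxin, heme and quinones: Gclc, Gclm, Sod1, Sod2, Cat, Gpx1, Prdx1, Txnrd1, Hmox1 and Nqo1. The genes were chosen by name, and all 10 were found among the 18828 annotated gene units of the array, with 26 of its 45101 probe sets. RNA was profiled on 16 Affymetrix mouse arrays, made from 4000 to 7000 sorted bone marrow cells per sample. Common lymphoid progenitors (CLP), which give rise to lymphocytes, came from wild-type mice of 8 to 12 weeks and were split by the surface protein Ly6D, with 2 arrays Ly6D+ and 2 arrays Ly6D-. Hematopoietic stem cells (HSC), which sustain all blood lineages, gave 3 arrays in each of 4 groups. Mutator HSC came from mice of 32 weeks with the genotype Polgtm1Lrsn-/-, a germline allele, carried by all cells and not by HSC alone, that is known to impair proofreading by the mitochondrial DNA polymerase. Their controls of the same age were Polgtm1Lrsn+/+ and are called wild-type HSC of 32 weeks here. Old HSC came from wild-type mice of 24 months, and young HSC from wild-type mice of 9 to 12 weeks. All mice were C57Bl6 and are labelled female, and the replicates are labelled biological, but the number of mice behind each array is not given.

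Reactive oxygen species arise mainly as superoxide from the mitochondrial respiratory chain. Superoxide dismutases turn superoxide into hydrogen peroxide, which catalase, glutathione peroxidases and peroxiredoxins remove, and the last of these depend on thioredoxin and thioredoxin reductase. Many of these genes are known targets of the transcription factor NRF2, which binds antioxidant response elements, and HSC are known to be sensitive to oxidative stress.

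The promoter windows below are shown because they hold the core of the antioxidant response element. RefSeq windows on GRCm38.p6, each reaching from 250 bases before to 50 bases after an annotated start, were available for 8 of the 10 genes. The motif TGACNNNGC, where N is any base, was searched on both strands, and the letters of each match are in capitals. It was present in 4 of 10 windows of the members, against 12.4% of all 32851 windows. All matches lay on the strand opposite to the gene and so read GCNNNGTCA here.
Gclm, chr3:122245307-122245606, plus strand: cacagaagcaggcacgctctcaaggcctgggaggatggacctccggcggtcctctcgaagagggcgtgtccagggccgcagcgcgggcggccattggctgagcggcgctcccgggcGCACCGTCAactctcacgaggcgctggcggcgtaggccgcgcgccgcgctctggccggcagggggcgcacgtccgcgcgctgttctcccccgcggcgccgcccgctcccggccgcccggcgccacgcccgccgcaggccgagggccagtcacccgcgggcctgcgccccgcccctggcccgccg
Sod1, chr16:90220512-90220811, plus strand: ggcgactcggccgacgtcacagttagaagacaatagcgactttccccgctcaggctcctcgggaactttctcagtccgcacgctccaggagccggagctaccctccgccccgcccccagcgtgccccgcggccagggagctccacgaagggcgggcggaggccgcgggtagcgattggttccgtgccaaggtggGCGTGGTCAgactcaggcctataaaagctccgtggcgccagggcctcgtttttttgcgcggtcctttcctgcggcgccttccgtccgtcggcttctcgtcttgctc
Prdx1, chr4:116685349-116685648, plus strand: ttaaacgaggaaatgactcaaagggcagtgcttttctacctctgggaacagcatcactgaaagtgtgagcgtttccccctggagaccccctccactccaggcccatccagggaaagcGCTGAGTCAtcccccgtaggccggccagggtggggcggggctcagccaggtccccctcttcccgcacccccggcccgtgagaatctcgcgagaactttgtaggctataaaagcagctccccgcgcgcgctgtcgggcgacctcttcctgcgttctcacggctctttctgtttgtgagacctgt
Txnrd1, chr10:82858956-82859255, plus strand: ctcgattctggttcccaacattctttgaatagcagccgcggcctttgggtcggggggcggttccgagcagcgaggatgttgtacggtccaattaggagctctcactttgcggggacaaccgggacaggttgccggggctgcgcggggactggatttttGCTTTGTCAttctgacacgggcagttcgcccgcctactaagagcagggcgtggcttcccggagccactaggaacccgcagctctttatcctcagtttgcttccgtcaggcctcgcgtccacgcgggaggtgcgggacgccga
The match began at position -134 from the start in Gclm, -56 in Sod1, -133 in Prdx1 and -92 in the second of the 3 Txnrd1 windows. The windows of Sod2, Cat, Gpx1 and Nqo1 and the other windows of Txnrd1 did not hold these letters. A match is a stretch of letters and no measure of binding.

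Values are the deposited probe set intensities on a linear scale, and differences are log2 changes of intensity + 16 with their standard error (SE). A gene is described as having risen or fallen where limma's p, adjusted by the Benjamini-Hochberg method over all genes tested, was under 0.05. The probe set of highest mean over the 16 arrays stands for each gene, and intensities are not compared between genes because probe sets differ in brightness. In RNA from sorted cells, a lower share of cells expressing a gene and less RNA per cell cannot be told apart.

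The arrays differed in ways that the groups share. The log2 ratio of the 3' to the 5' actin control probe sets, which rises as RNA is shortened, was 4.67 to 5.16 in mutator HSC and 4.20 to 5.19 in wild-type HSC of 32 weeks. It was 2.19 to 2.25 in old HSC, 2.37 to 2.60 in young HSC, 2.50 to 3.81 in Ly6D+ CLP and 2.10 to 2.51 in Ly6D- CLP. This ratio and the age of 32 weeks cannot be told apart. All 4 CLP arrays and replicate 3 of the wild-type HSC of 32 weeks had Xist at 9.12 to 16.8 and the Y-linked Eif2s3y at 423 to 758, against their female label. The HSC markers that matched the array (8 of 10 listed) were 7 or 8 above the 40th percentile on every HSC array, and 7 or 8 of the 8 CLP markers were so on every CLP array. The HSC markers summed to 7673 to 8809 in mutator HSC and 6737 to 8233 in wild-type HSC of 32 weeks. They summed to 13064 to 16157 in old HSC and 9327 to 11532 in young HSC, without overlap with each other or with the HSC of 32 weeks. Summed erythroid markers, mostly Car2 and a probe set shared by Hbb-b1 and other beta-globin genes, read 700 to 918 in Ly6D+ CLP, 1395 to 3962 in Ly6D- CLP, 3839 to 6614 in mutator HSC, 3345 to 6345 in wild-type HSC of 32 weeks, 7936 to 9304 in old HSC and 7474 to 11809 in young HSC. Summed macrophage markers read 255 to 293 in Ly6D+ CLP, 228 to 751 in Ly6D- CLP, 359 to 438 in mutator HSC, 246 to 296 in wild-type HSC of 32 weeks, 260 to 315 in old HSC and 498 to 1113 in young HSC. Neutrophil markers summed to 184 to 236 in Ly6D+ CLP, 190 to 4561 in Ly6D- CLP, 464 to 5259 in mutator HSC, 463 to 5948 in wild-type HSC of 32 weeks, 163 to 1438 in old HSC and 1121 to 5434 in young HSC. The part of RNA length, of the HSC marker levels or of these cells in the results was not tested. Polg itself read 65.9 to 125 in mutator HSC and 113 to 163 in wild-type HSC of 32 weeks, which does not check a change within its coding sequence.

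Antioxidant genes differed most between progenitors and stem cells. In CLP against young HSC, 7 of the 10 fell and none rose: Gclc, Gclm, Sod1, Sod2, Cat, Txnrd1 and Nqo1. Of all 14798 genes tested, 18% fell and 12.6% rose in this comparison. The median log2 change was -0.88 over the 10 members and 0.01 over all genes. In CLP against wild-type HSC of 32 weeks, 4 fell and none rose, namely Gclm, Sod2, Cat and Nqo1, where 12.2% of all genes fell and 15.9% rose. The median was -0.40 over the members and 0.03 over all genes. Without wild-type replicate 3, which goes against its sex label, 3 fell there, namely Gclm, Sod1 and Nqo1. In that fit 1478 of all 14798 genes fell and 2040 rose. In both comparisons sex pattern and cell type cannot be told apart on the CLP side, and the second also differs in age and in the 3' to 5' ratio. Markers of other cells moved with cell type too. Summed megakaryocyte markers, of which 7 or 8 of 8 were above the 40th percentile on every HSC array, read 234 to 303 in Ly6D+ CLP and 181 to 270 in Ly6D- CLP, against 2584 to 4849 in wild-type HSC of 32 weeks and 2677 to 3278 in young HSC. Summed T and NK cell markers read 749 to 1226 in Ly6D+ CLP and 873 to 1044 in Ly6D- CLP, where most of the sum was Nkg7. They read 220 to 461 in wild-type HSC of 32 weeks and 273 to 337 in young HSC. Every CLP array also lay below every young array in the erythroid sum. The part of these markers in the falls was not tested.

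**Figure D1:**
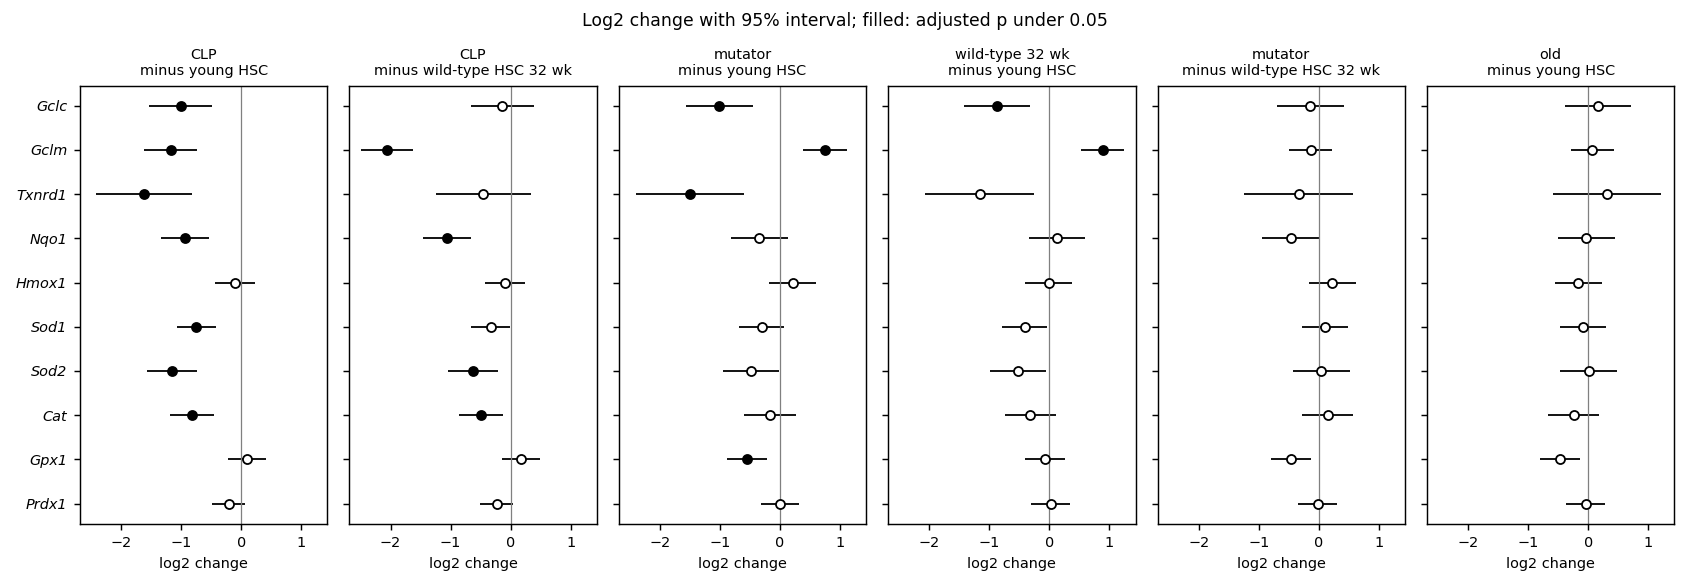
Log2 change with its 95% interval for each of the 10 genes (rows) in 6 comparisons (columns), with filled points where the adjusted p was under 0.05. In CLP minus young HSC 7 points are filled, all left of 0, and in mutator minus wild-type HSC of 32 weeks and in old minus young HSC none is filled.

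With age and with the mutator genotype, each set against its own control, no member passed the threshold. In old against young HSC, 0 of 10 passed, where 1.32% of all 13911 genes did and 9.09% had an unadjusted p under 0.05. In mutator HSC against wild-type HSC of 32 weeks, 0 of 10 passed, where 0% of all genes did and 7.22% had an unadjusted p under 0.05. The difference between these effects was tested as a contrast of its own, and again 0 of 10 passed, where 0.532% of all genes did and 7.84% had an unadjusted p under 0.05. In Ly6D+ against Ly6D- CLP, 0 of 10 passed, where 2.6% of all genes did and 12.9% had an unadjusted p under 0.05. The arrays of the CLP fractions did not overlap for 8 of the 10 genes, where 35.2% of all genes did not overlap. These had no shared direction: Gclc, Sod2, Cat and Prdx1 were higher in Ly6D+ CLP, and Gpx1, Txnrd1, Hmox1 and Nqo1 were lower. For Gpx1 the nearest arrays of the fractions read 4721 and 4722.

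A few members also passed in the HSC of 32 weeks against young HSC, at either genotype. In mutator HSC against young HSC, Gclm rose and Gclc, Gpx1 and Txnrd1 fell, where 4.54% of all genes rose and 12.7% fell. In wild-type HSC of 32 weeks against young HSC, Gclm rose and Gclc fell, where 6.59% of all genes rose and 17.8% fell. The share of members called there was close to that of all genes. Without wild-type replicate 3, Gclm remained (0.79, adjusted p = 0.0130) and Gclc missed the threshold (-0.90, adjusted p = 0.0572). With quantile normalization the calls over all genes were 970 higher and 1311 lower for mutator against young HSC, against 632 and 1761 without it, and 1318 higher and 1872 lower for wild-type HSC of 32 weeks, against 917 and 2478. The comparisons with young HSC share the young arrays, and those with wild-type HSC of 32 weeks share theirs, so they are not independent of each other. They also contrast the arrays with the highest 3' to 5' ratios with those of lower ratios.

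Gclc encodes the catalytic subunit of glutamate-cysteine ligase, the rate-limiting enzyme of glutathione synthesis. Its brightest probe set, 1455959_s_at, read 619 and 391 in Ly6D+ CLP, 320.1 and 262 in Ly6D- CLP, 240.4, 425 and 527 in mutator HSC, 335, 505 and 434 in wild-type HSC of 32 weeks, 766, 933 and 931 in old HSC and 711, 867 and 766 in young HSC. The 6 arrays of old and young HSC overlapped each other and lay above every other array. Gclc fell in CLP against young HSC with a log2 change of -1.01, SE 0.24, adjusted p = 0.00662. It fell likewise in mutator HSC against young HSC (-1.01, SE 0.25, adjusted p = 0.0195) and in wild-type HSC of 32 weeks against young HSC (-0.87, SE 0.25, adjusted p = 0.0276). The last call was lost when any of 5 of the 6 arrays was left out (adjusted p up to 0.0964), and that in mutator HSC without young replicate 2 or without young replicate 3 (adjusted p up to 0.0769). Gclc averaged 505 ± 161 in Ly6D+ CLP and 291 ± 41.4 in Ly6D- CLP (SD, n = 2 each), a difference that missed the threshold (0.74, SE 0.32, adjusted p = 0.339).

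Gclm encodes the modifier subunit of the same ligase, which lowers its need for substrate and its inhibition by glutathione. Its brightest probe set, 1418627_at, read 316 and 169 in Ly6D+ CLP, 230.4 and 331 in Ly6D- CLP, 1118, 1007 and 906 in mutator HSC, 887, 1198 and 1278 in wild-type HSC of 32 weeks, 605, 671 and 586 in old HSC and 532, 648 and 597 in young HSC. The arrays fell into 3 tiers without overlap, with CLP lowest, old and young HSC between, and the HSC of 32 weeks highest, and within a tier the groups overlapped. Gclm had the largest called change of the 10 genes, in CLP against wild-type HSC of 32 weeks (-2.06, SE 0.20, adjusted p = 8.32e-06). The change in CLP against young HSC was -1.17, SE 0.20, adjusted p = 7.79e-04. Gclm rose in mutator HSC against young HSC (0.75, SE 0.16, adjusted p = 0.011) and in wild-type HSC of 32 weeks against young HSC (0.89, SE 0.16, adjusted p = 0.00327). Each of these 4 calls held when any array was left out, including replicate 3 of the wild-type HSC of 32 weeks. Mutator HSC and wild-type HSC of 32 weeks did not differ past the threshold (-0.14, SE 0.16, adjusted p = 0.921, 95% interval -0.50 to 0.23).

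**Figure D2:**
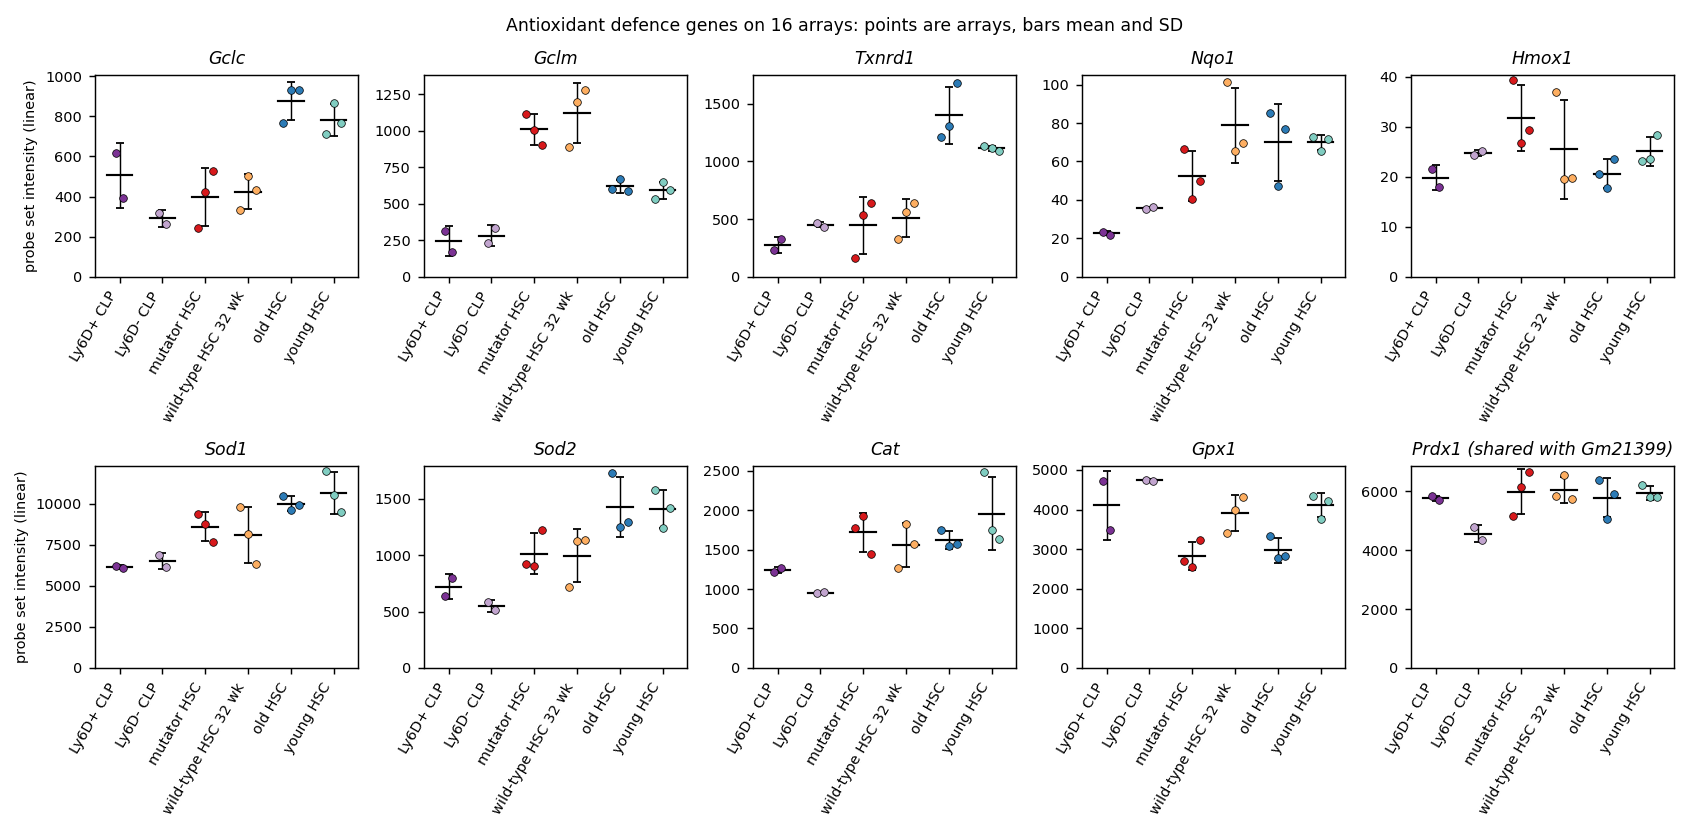
Probe set intensity (linear, from 0) of the 10 genes on the 16 arrays, with points for arrays and bars for the group mean and SD. The Gclm panel shows 3 tiers, with CLP at 169 to 331, old and young HSC at 532 to 671 and HSC of 32 weeks at 887 to 1278.

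Other probe sets of both subunits of the ligase disagreed with these. Fitted with every probe set as a feature, where 21.4% of all probe sets passed in wild-type HSC of 32 weeks against young HSC, Gclc gave 0.70 on 1424296_at (adjusted p = 0.0497) and -0.87 on 1455959_s_at (adjusted p = 0.0326). In mutator against young HSC, where 16.2% of all probe sets passed, the same pair gave 0.67 (adjusted p = 0.0704) and -1.01 (adjusted p = 0.0221). Probe set 1424296_at read 361, 351 and 450.4 in mutator HSC, 303, 479 and 421 in wild-type HSC of 32 weeks and 171, 267 and 290.5 in young HSC. Thus the direction of Gclc between the HSC of 32 weeks and young HSC depended on the probe set. In CLP against young HSC, where 23.2% of all probe sets passed, 1424296_at gave 0.08 (adjusted p = 0.885), so the fall there rests on 1455959_s_at.

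For Gclm, probe set 1439050_at read 26.1 and 43.1 in Ly6D+ CLP, 84.8 and 76.0 in Ly6D- CLP, 83.3, 278 and 295 in mutator HSC, 47.9, 318 and 289 in wild-type HSC of 32 weeks, 639.6, 702 and 701 in old HSC and 386, 359.7 and 381 in young HSC. It lay below young HSC on every array of the HSC of 32 weeks, opposite to 1418627_at, with changes of -0.91 in mutator HSC (adjusted p = 0.323) and -1.07 in wild-type HSC of 32 weeks (adjusted p = 0.218). The mean of both probe sets gave -0.077 for Gclm in mutator HSC and -0.090 in wild-type HSC of 32 weeks against young HSC, so its rise at 32 weeks rests on 1418627_at. Both probe sets were lower in CLP than in young HSC, by -2.50 on 1439050_at (adjusted p = 0.00339) beside -1.17 on 1418627_at (adjusted p = 0.00115). In CLP against wild-type HSC of 32 weeks, where 23.6% of all probe sets passed, 1439050_at gave -1.43 and did not pass (adjusted p = 0.0602). The arrays of the HSC of 32 weeks are those with the highest 3' to 5' ratios, and the part of RNA length in the disagreement was not tested.

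**Figure D3:**
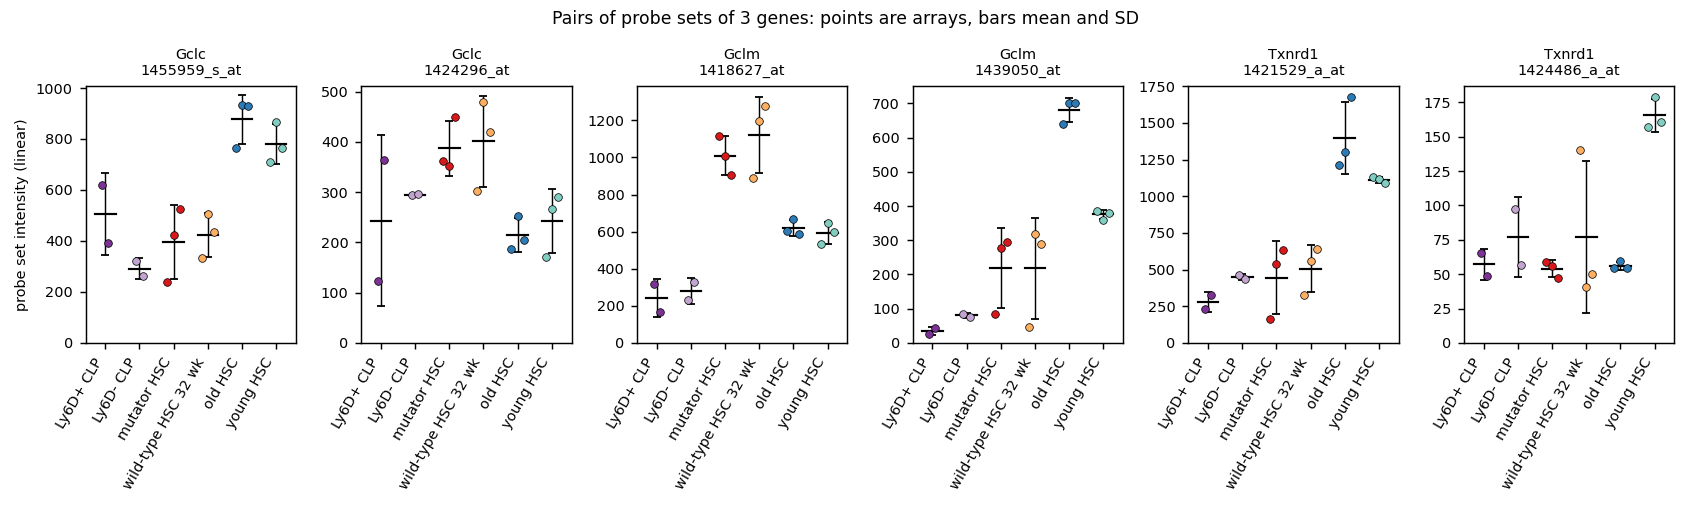
Intensity (linear, from 0) on the 16 arrays for pairs of probe sets of Gclc, Gclm and Txnrd1, with points for arrays and bars for the group mean and SD. The pair of Gclc and the pair of Gclm place the HSC of 32 weeks on opposite sides of young HSC, and the pair of Txnrd1 places old HSC on opposite sides.

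Txnrd1 encodes the cytosolic thioredoxin reductase, which keeps thioredoxin reduced with electrons from NADPH. It read 229 and 327 in Ly6D+ CLP, 466 and 435 in Ly6D- CLP, 161, 536 and 635 in mutator HSC, 325, 558 and 639 in wild-type HSC of 32 weeks, 1215, 1304 and 1678 in old HSC and 1129.9, 1120.0 and 1089.6 in young HSC. Old and young HSC lay above all other arrays, and replicate 1 of the mutator HSC was the lowest of the 16. Txnrd1 fell in CLP against young HSC (-1.62, SE 0.37, adjusted p = 0.00472) and in mutator HSC against young HSC (-1.50, SE 0.41, adjusted p = 0.0294). The second call was lost when any young array was left out (adjusted p up to 0.0839). In wild-type HSC of 32 weeks against young HSC it stood at -1.16, SE 0.41, adjusted p = 0.0615, which did not pass. The dimmer probe set 1424486_a_at passed in all 3 comparisons, with -1.16 in CLP (adjusted p = 0.00974), -1.38 in mutator HSC (adjusted p = 0.0121) and -1.11 in wild-type HSC of 32 weeks (adjusted p = 0.0234) against young HSC. It read 54.4, 59.5 and 54.8 in old HSC and 157, 179 and 161 in young HSC, without overlap, a change of -1.33 (adjusted p = 0.0824) where 0.854% of all probe sets passed. The brighter probe set was higher on all old arrays than on any young array (0.31, SE 0.41, adjusted p = 0.9996), so the order of old and young HSC depended on the probe set. The arrays of old and young HSC did not overlap for 27.3% of all genes, and neither probe set passed in this comparison. The remaining probe set, 1424487_x_at, was too dim to be tested.

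Prdx1 encodes a peroxiredoxin, which reduces peroxides with electrons from thioredoxin. All 5 of its probe sets are annotated to Prdx1 and to the pseudogene Gm21399, so its values cannot be assigned to Prdx1 alone. The brightest, 1436691_x_at, averaged 5768 ± 85.7 in Ly6D+ CLP and 4566 ± 294 in Ly6D- CLP (SD, n = 2 each), and its means in the 4 HSC groups lay between 5787 and 6037. Each array of Ly6D- CLP lay below every other array. No comparison passed for it, and in CLP against young HSC the change was -0.21, SE 0.13, adjusted p = 0.237, with a 95% interval of -0.48 to 0.06. Among its other probe sets, 1433866_x_at and 1434731_x_at passed in CLP against young HSC, with -0.56 (adjusted p = 0.0236) and -0.36 (adjusted p = 0.0401). Probe set 1416000_a_at had the opposite sign and did not pass, with 0.35 in CLP against young HSC (adjusted p = 0.271) and 0.56 in CLP against wild-type HSC of 32 weeks (adjusted p = 0.0755).

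Sod1 encodes the cytosolic superoxide dismutase that uses copper and zinc. It read 6228 and 6072 in Ly6D+ CLP, 6848 and 6159.7 in Ly6D- CLP, 9393, 8764 and 7648 in mutator HSC, 9767, 8173 and 6339 in wild-type HSC of 32 weeks, 10479, 9603 and 9894 in old HSC and 12000.1, 10499 and 9482 in young HSC. The CLP arrays lay below all arrays of young, old and mutator HSC, and overlapped with replicate 3 of the wild-type HSC of 32 weeks. Sod1 fell in CLP against young HSC (-0.75, SE 0.15, adjusted p = 0.00227). It did not pass in mutator HSC (-0.31, SE 0.17, adjusted p = 0.264) or wild-type HSC of 32 weeks (-0.41, SE 0.17, adjusted p = 0.109) against young HSC. Without that replicate 3, Sod1 passed in CLP against wild-type HSC of 32 weeks (-0.50, adjusted p = 0.0268), against -0.33, SE 0.15, adjusted p = 0.121 with it. Its other probe sets were mixed: in wild-type HSC of 32 weeks against young HSC, 1451124_at gave -1.29 (adjusted p = 0.0326), 1435304_at 0.45 (adjusted p = 0.142) and 1440222_at 0.68 (adjusted p = 0.169), and 1447761_x_at was too dim to be tested. In CLP against young HSC, 1451124_at gave -0.84 (adjusted p = 0.0865), 1435304_at 0.09 (adjusted p = 0.792) and 1440222_at 0.55 (adjusted p = 0.299). The fall there thus rests on the brightest probe set, 1459976_s_at. With the mean of all 5, the change in CLP against young HSC was -0.19 (adjusted p = 0.265).

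Sod2 encodes the mitochondrial superoxide dismutase, which uses manganese. It read 640.0 and 800.1 in Ly6D+ CLP, 587 and 509.6 in Ly6D- CLP, 921, 899.5 and 1223 in mutator HSC, 722, 1129 and 1134 in wild-type HSC of 32 weeks, 1730.2, 1254 and 1296 in old HSC and 1577, 1242 and 1419 in young HSC. Old and young HSC overlapped and lay above every other array. Sod2 fell in CLP against young HSC (-1.15, SE 0.19, adjusted p = 6.33e-04) and against wild-type HSC of 32 weeks (-0.63, SE 0.19, adjusted p = 0.0279). The second call was lost when any of 4 of the 7 arrays was left out, among them wild-type replicate 3 (-0.52, adjusted p = 0.109). On this probe set the HSC of 32 weeks did not pass against young HSC, with -0.48, SE 0.21, adjusted p = 0.153 in mutator HSC and -0.52, SE 0.21, adjusted p = 0.101 in wild-type HSC of 32 weeks. Probe sets 1417193_at and 1454976_at did pass there, with -0.94 (adjusted p = 0.0358) and -0.77 (adjusted p = 0.0171) in mutator HSC and -0.92 (adjusted p = 0.0323) and -1.26 (adjusted p = 0.00127) in wild-type HSC of 32 weeks. In CLP against wild-type HSC of 32 weeks, by contrast, 1417193_at gave 0.11 (adjusted p = 0.812) and 1454976_at gave 0.12 (adjusted p = 0.643), so the fall there rests on the brightest probe set, and the mean of all 4 gave -0.12 (adjusted p = 0.565). The dim probe set 1417194_at, at 13.8 to 30.2 on all arrays, passed in no comparison.

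Cat encodes catalase, the peroxisomal enzyme that breaks down hydrogen peroxide. It read 1215 and 1264 in Ly6D+ CLP, 946 and 962 in Ly6D- CLP, 1777, 1925 and 1449 in mutator HSC, 1268, 1825 and 1574 in wild-type HSC of 32 weeks, 1751, 1545 and 1570.3 in old HSC and 2484, 1749.5 and 1633 in young HSC. Every CLP array lay below every HSC array, the Ly6D- pair lowest, while the 4 HSC groups overlapped. Cat fell in CLP against young HSC (-0.81, SE 0.17, adjusted p = 0.00276) and against wild-type HSC of 32 weeks (-0.49, SE 0.17, adjusted p = 0.0445). Only without wild-type replicate 1 did the second call hold when an array was left out (adjusted p up to 0.153 for the other 6, and 0.105 without wild-type replicate 3). Its other probe set, 1416430_at, did not pass, with -0.43 in CLP against young HSC (adjusted p = 0.378) and 0.39 in CLP against wild-type HSC of 32 weeks (adjusted p = 0.421), where 23.6% of all probe sets passed.

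Gpx1 encodes the cytosolic glutathione peroxidase, a selenoprotein, and has a single probe set. It read 4721 and 3483 in Ly6D+ CLP, 4753 and 4722 in Ly6D- CLP, 2699, 2539.7 and 3227 in mutator HSC, 3408, 3994 and 4308 in wild-type HSC of 32 weeks, 3321, 2764 and 2815 in old HSC and 4333, 3773 and 4222 in young HSC. The arrays of mutator HSC lay below those of wild-type HSC of 32 weeks, and the arrays of old HSC below those of young HSC. Such a separation was found for 6.07% of all genes in mutator against wild-type HSC of 32 weeks and for 27.3% in old against young HSC. Neither change passed the threshold: the log2 change was -0.47, SE 0.15, adjusted p = 0.607 for mutator HSC and -0.47, SE 0.15, adjusted p = 0.239 for old HSC. The difference between these effects was 0.00, with a 95% interval of -0.47 to 0.47 and an adjusted p of 0.999. With only the 6 arrays of old and young HSC in the fit, Gpx1 passed (adjusted p = 0.0452). In that fit 1037 of all 13911 genes passed, against 183 with all HSC arrays.

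Gpx1 fell in mutator HSC against young HSC (-0.54, SE 0.15, adjusted p = 0.0313). Wild-type HSC of 32 weeks overlapped with young HSC (-0.08, SE 0.15, adjusted p = 0.748), while mutator HSC and these controls differed by less than the threshold asks, as given above. The call in mutator HSC was lost when any of 5 of the 6 arrays was left out (adjusted p up to 0.108). In CLP Gpx1 was not below HSC, with a 95% interval of the log2 change of -0.22 to 0.41 against young HSC. The erythroid sums overlapped between mutator HSC and wild-type HSC of 32 weeks and between old and young HSC. Within them, Car2 read 6079 to 7734 in old HSC and 4518 to 5887 in young HSC. The beta-globin probe set read 1147 to 2130 in old HSC and 2281 to 6270 in young HSC. The macrophage sums overlapped in neither pair, being lower in old than in young HSC and higher in mutator HSC than in wild-type HSC of 32 weeks. The megakaryocyte sums read 6596 to 8482 in old HSC and 2677 to 3278 in young HSC. They overlapped between mutator HSC (2433 to 3361) and wild-type HSC of 32 weeks (2584 to 4849). The part of these markers in the values of Gpx1 was not tested.

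Nqo1 encodes a quinone reductase that is a classic target of NRF2, and has a single, dim probe set. It read 23.4 and 21.9 in Ly6D+ CLP, 35.3 and 36.3 in Ly6D- CLP, 66.6, 40.5 and 49.99 in mutator HSC, 101, 65.7 and 69.8 in wild-type HSC of 32 weeks, 85.4, 47.1 and 77.0 in old HSC and 72.6, 65.7 and 71.4 in young HSC. Each CLP array lay below every HSC array, and each Ly6D+ array below each Ly6D- array. Nqo1 fell in CLP against young HSC (-0.94, SE 0.19, adjusted p = 0.002) and against wild-type HSC of 32 weeks (-1.07, SE 0.19, adjusted p = 8.84e-04), and both calls held when any array was left out. Mutator HSC averaged 52.4 ± 13.2 and wild-type HSC of 32 weeks 78.9 ± 19.5 (SD, n = 3 each), with an overlap of the arrays and -0.47, SE 0.22, adjusted p = 0.689.

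Hmox1 encodes the inducible heme oxygenase, which breaks down heme. It read 21.5 and 17.95 in Ly6D+ CLP, 24.3 and 25.1 in Ly6D- CLP, 39.2, 26.7 and 29.3 in mutator HSC, 36.9, 19.6 and 19.8 in wild-type HSC of 32 weeks, 20.6, 17.7 and 23.5 in old HSC and 23.2, 23.5 and 28.4 in young HSC. The 40th percentile of the arrays was 16.6 to 21.3, so Hmox1 was dim throughout, and a change at lower RNA levels was not detectable with this probe set. No comparison passed, and mutator HSC against wild-type HSC of 32 weeks gave 0.22, SE 0.18, adjusted p = 0.866, with a 95% interval of -0.17 to 0.61.

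Further genes of redox defence were taken from 7 lists of 69 genes in all, of which 66 matched the array and 65 were tested. Each is given on its brightest probe set alone, and other probe sets were compared only for the 10 members. The comparisons with HSC of 32 weeks also carry the difference in the 3' to 5' ratio. In CLP against young HSC, 7 rose and 21 fell, where 12.6% of all genes rose and 18% fell, and the median log2 change over the 65 was -0.26, beside 0.01 over all genes. In CLP against wild-type HSC of 32 weeks, 11 rose and 10 fell, close to the 15.9% and 12.2% over all genes, with a median of 0.0033, beside 0.03 over all genes. Among mutator HSC against young HSC, 3 rose and 16 fell, where 4.54% of all genes rose and 12.7% fell, with a median of -0.25, beside -0.05 over all genes. Wild-type HSC of 32 weeks had 5 genes that rose and 18 that fell against young HSC, where 6.59% of all genes rose and 17.8% fell, with a median of -0.28, beside -0.04 over all genes. In Ly6D+ against Ly6D- CLP, 3 rose and 1 fell, where 2.6% of all genes passed in either direction. In old against young HSC, in mutator HSC against wild-type HSC of 32 weeks, and for the difference of these effects, none of the 65 passed, beside the shares of all genes given above for the 10 members.

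**Figure D4:**
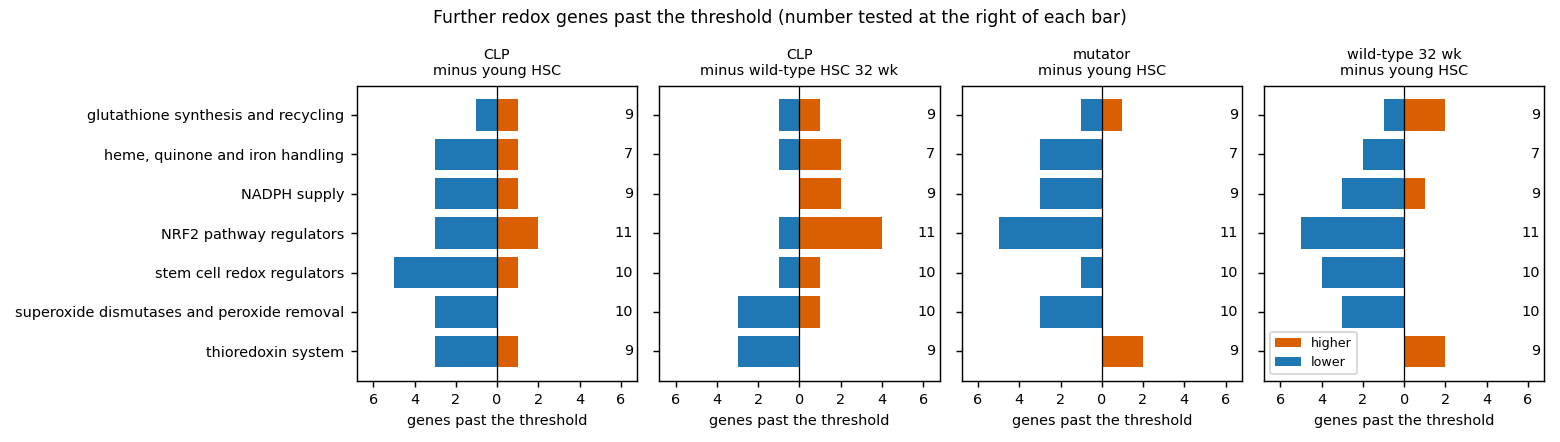
Number of genes past the threshold in each of 7 lists of further redox genes (rows) in 4 comparisons (columns), with higher to the right and lower to the left of 0 and the number tested at the right. Most called genes lie on the lower side in the 3 comparisons with young HSC, and both sides are filled in CLP minus wild-type HSC of 32 weeks.

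Of the genes that recycle or make glutathione, Gsr, the reductase that regenerates it, fell in CLP (-2.07, SE 0.47, adjusted p = 0.00476), mutator HSC (-2.49, SE 0.42, adjusted p = 0.00306) and wild-type HSC of 32 weeks (-2.35, SE 0.42, adjusted p = 0.00272), each against young HSC. Gss, which joins glycine to complete glutathione, rose in wild-type HSC of 32 weeks against young HSC (0.54, SE 0.15, adjusted p = 0.0249) and fell in CLP against wild-type HSC of 32 weeks (-0.69, SE 0.14, adjusted p = 0.003). Ggt5, of the gamma-glutamyltransferase family, rose in CLP (0.78, SE 0.19, adjusted p = 0.00644), mutator HSC (0.67, SE 0.20, adjusted p = 0.0428) and wild-type HSC of 32 weeks (0.78, SE 0.20, adjusted p = 0.0178) against young HSC. The mitochondrial glutaredoxin Glrx5 rose in CLP against wild-type HSC of 32 weeks (0.70, SE 0.19, adjusted p = 0.014). Among peroxide removal genes, Ccs, the chaperone that loads copper into Sod1, fell in CLP (-1.30, SE 0.19, adjusted p = 2.21e-04), mutator HSC (-1.08, SE 0.22, adjusted p = 0.00725) and wild-type HSC of 32 weeks (-1.36, SE 0.22, adjusted p = 0.00153) against young HSC. The mitochondrial peroxiredoxin Prdx3 fell in mutator HSC (-0.88, SE 0.21, adjusted p = 0.0166) and in wild-type HSC of 32 weeks (-1.12, SE 0.21, adjusted p = 0.00354) against young HSC, and rose in CLP against wild-type HSC of 32 weeks (0.76, SE 0.23, adjusted p = 0.0274). Srxn1, the sulfiredoxin that repairs peroxiredoxins, fell in CLP against young HSC (-1.37, SE 0.37, adjusted p = 0.0125) and against wild-type HSC of 32 weeks (-1.47, SE 0.37, adjusted p = 0.00904).

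In the thioredoxin system, Txnip, the thioredoxin inhibitor, fell in CLP against young HSC (-1.53, SE 0.18, adjusted p = 3.75e-05) and against wild-type HSC of 32 weeks (-1.53, SE 0.18, adjusted p = 3.97e-05). Txnl1, a thioredoxin-like protein, rose in mutator HSC (0.51, SE 0.13, adjusted p = 0.022) and in wild-type HSC of 32 weeks (0.41, SE 0.13, adjusted p = 0.0404) against young HSC, and fell in CLP against young HSC (-0.73, SE 0.21, adjusted p = 0.0194) and against wild-type HSC of 32 weeks (-1.14, SE 0.21, adjusted p = 0.00146). Msra, a methionine sulfoxide reductase, rose in CLP (0.98, SE 0.28, adjusted p = 0.0159) and in mutator HSC (0.83, SE 0.25, adjusted p = 0.0399) against young HSC. None of the 9 genes of this list, which does not hold Txnrd1, fell in mutator HSC or wild-type HSC of 32 weeks against young HSC. Of all genes, 12.7% fell in mutator HSC and 17.8% in wild-type HSC of 32 weeks. The mitochondrial reductase Txnrd2 fell in Ly6D+ against Ly6D- CLP (-1.02, SE 0.23, adjusted p = 0.0369) and Txnrd3 rose there (1.36, SE 0.25, adjusted p = 0.0122). Txnrd3 also rose in wild-type HSC of 32 weeks against young HSC (0.59, SE 0.16, adjusted p = 0.0224) and fell in CLP against wild-type HSC of 32 weeks (-0.55, SE 0.19, adjusted p = 0.046). Of the genes that supply NADPH, Idh2, the mitochondrial isocitrate dehydrogenase, fell in mutator HSC (-2.36, SE 0.42, adjusted p = 0.00393) and wild-type HSC of 32 weeks (-2.48, SE 0.42, adjusted p = 0.00203) against young HSC, and rose in CLP against wild-type HSC of 32 weeks (2.57, SE 0.38, adjusted p = 2.51e-04). Pgls of the pentose phosphate pathway rose in CLP against young HSC (2.62, SE 0.21, adjusted p = 1.10e-06) and against wild-type HSC of 32 weeks (1.83, SE 0.21, adjusted p = 3.27e-05), and in wild-type HSC of 32 weeks against young HSC (0.79, SE 0.19, adjusted p = 0.012). In the NADPH supply list, 1 gene rose and 3 fell in CLP against young HSC, and those that fell are not named here. Fth1, the ferritin heavy chain, fell in mutator HSC (-0.89, SE 0.19, adjusted p = 0.0102) and wild-type HSC of 32 weeks (-1.15, SE 0.19, adjusted p = 0.00203) against young HSC, and rose in CLP against wild-type HSC of 32 weeks (1.36, SE 0.17, adjusted p = 5.60e-05). Hmox2, the constitutive heme oxygenase, rose in CLP against young HSC (0.57, SE 0.17, adjusted p = 0.019) and against wild-type HSC of 32 weeks (1.08, SE 0.17, adjusted p = 3.67e-04), and fell in mutator HSC against young HSC (-0.75, SE 0.18, adjusted p = 0.0145). Nqo2, the paralog of Nqo1, fell in CLP against young HSC (-1.53, SE 0.27, adjusted p = 9.71e-04).

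Among the regulators of NRF2, Bach1, a heme-binding repressor of its targets, fell in CLP (-2.61, SE 0.37, adjusted p = 1.59e-04), mutator HSC (-1.12, SE 0.13, adjusted p = 4.76e-04) and wild-type HSC of 32 weeks (-1.38, SE 0.13, adjusted p = 1.26e-04) against young HSC. Cul3, the ubiquitin ligase scaffold that acts on NRF2 with Keap1, fell in CLP (-1.15, SE 0.19, adjusted p = 6.13e-04), mutator HSC (-1.26, SE 0.20, adjusted p = 0.0025) and wild-type HSC of 32 weeks (-1.51, SE 0.20, adjusted p = 6.92e-04) against young HSC as well. Bach1 fell in CLP against wild-type HSC of 32 weeks too (-1.23, SE 0.37, adjusted p = 0.0236), where 4 of the 11 genes of this list rose. These were Mafk, a small partner protein of NRF2 (1.48, SE 0.22, adjusted p = 2.64e-04), Bach2, a repressor related to Bach1 (1.32, SE 0.26, adjusted p = 0.00229), Sqstm1, an autophagy receptor that binds Keap1 (1.18, SE 0.30, adjusted p = 0.0106), and Nfe2l1, a relative of NRF2 (0.52, SE 0.15, adjusted p = 0.0169). Mafk (1.23, SE 0.22, adjusted p = 9.73e-04) and Bach2 (0.85, SE 0.26, adjusted p = 0.0267) rose in CLP against young HSC as well. Sqstm1 fell in mutator HSC (-1.52, SE 0.30, adjusted p = 0.00673) and wild-type HSC of 32 weeks (-1.19, SE 0.30, adjusted p = 0.0144) against young HSC. Nfe2l2, which encodes NRF2, and Keap1 passed in no comparison, a pair singled out after their values were seen, with Nfe2l2 at -0.66, SE 0.29, adjusted p = 0.109 in CLP against young HSC. Of the redox regulators of stem cells, Prdm16 fell in CLP (-4.51, SE 0.24, adjusted p = 2.58e-08), mutator HSC (-1.26, SE 0.24, adjusted p = 0.00565) and wild-type HSC of 32 weeks (-0.76, SE 0.24, adjusted p = 0.0387) against young HSC. In this list, 1 gene rose and 5 fell in CLP against young HSC. In wild-type HSC of 32 weeks against young HSC, 4 fell. The cell cycle inhibitor Cdkn1a rose in CLP against young HSC (2.63, SE 0.42, adjusted p = 3.95e-04) and against wild-type HSC of 32 weeks (1.72, SE 0.42, adjusted p = 0.00773). Ly6D+ against Ly6D- CLP had higher Cdkn1a (2.42, SE 0.55, adjusted p = 0.0343) and Foxo1, a factor needed for early B cells (2.55, SE 0.34, adjusted p = 0.00117).

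The 6 group means of 5 members spanned at least 1 log2 unit, and the genes of most similar profile were found for them. Likeness was the mean absolute difference between centred profiles of the 6 group means, in log2 units, over all genes past the filter. Nearest to Gclc were Trdmt1, Fbh1 and Cnst at 0.050, 0.052 and 0.063, beside a median of 0.53 over all genes. Nearest to Gclm were Rabgef1, Tle6 and Rnf14 at 0.067, 0.072 and 0.086, beside a median of 0.77. Sod2 was closest to Skp1, Tmed9 and Klf10 at 0.060, 0.062 and 0.068, beside 0.47. Txnrd1 was closest to Mphosph6, Uxs1 and Pde8a at 0.102, 0.107 and 0.117, beside 0.76. Nqo1 was closest to Tas1r1, Vamp3 and Zfp52 at 0.085, 0.089 and 0.090, beside 0.47. These profiles rest on 6 group means of the same 16 arrays. The genes named were picked for the smallest distances, so their place below the median follows from that choice.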

How the data were processed

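Each of 16 RNA samples from sorted marrow cells was hybridised to an Affymetrix array. The deposited values are linear intensities that the authors summarised per probe set. How they summarised, background-corrected or normalized them was not given in the sources used here. RNA was turned into biotinylated cRNA, per the labels' protocols. Of the probe sets, 34945 carry 1 gene symbol, 932 several and 9224 none, in GEO's platform annotation. Values were used as log2(intensity + 16), with 1 probe set per gene or shared annotation (highest mean over 16 arrays). Genes above the 40th percentile on at least 3 of 12 HSC arrays (13911) or 2 of 16 arrays (14798) were tested. Groups follow the labels. The R package limma 3.58.1 (R 4.3.3; lmFit, eBayes) estimated group means and their differences, with Benjamini-Hochberg adjustment, and was checked on simulated data. HSC comparisons used 12 arrays, and CLP comparisons all 16, with CLP as the mean of both fractions. The number of arrays limits the precision.

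The members and gene lists were chosen with earlier results of these data known. All members are named, with at most 4 called genes per list and direction, by size, and the 3 genes nearest in profile to members whose group means span at least 1 log2 unit. Some called genes of the lists are not named. Alternatives covered pseudocount, filter, normalization, probe set choice, moderation, arrays in the fit, replicate block and each array left out, and 2 were added after seeing the data: every probe set, and young replicates 2 and 3 counted as 1.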

Additional observations from a re-analysis of the deposited data

How the results depend on the processing

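The count of members past the threshold moved by over 1.5 times in these cases. For old against young HSC it was 1 (Gpx1) with only the groups compared in the fit, against 0. For wild-type HSC of 32 weeks against young HSC it was 1 with quantile normalization and 1 with young replicates 2 and 3, the most alike pair of arrays, counted as 1, against 2, and 1 to 2 with an array left out. For mutator against young HSC it was 1 with those young arrays counted as 1, against 4, and 1 to 4 with an array left out. For CLP against wild-type HSC of 32 weeks it was 2 with median centring, with the mean of all probe sets and with only the groups compared, against 4, and 2 to 4 with an array left out. For CLP against young HSC it was 7 under each array left out. For mutator against wild-type HSC of 32 weeks, the difference of effects and Ly6D+ against Ly6D- CLP it was 0 under every alternative run. The mean of all probe sets reversed Gclm, to -0.090 in wild-type HSC of 32 weeks and -0.077 in mutator HSC against young HSC, where its probe sets disagree. Single calls changed as follows beside those that rest on an array left out, given with each gene. With the mean of all probe sets, Gclc was lost in mutator HSC, wild-type HSC of 32 weeks and CLP, and Sod1 in CLP, each against young HSC, Sod2 and Cat were lost in CLP against wild-type HSC of 32 weeks, and Sod2 was added in mutator HSC and Sod2 and Txnrd1 in wild-type HSC of 32 weeks against young HSC. In wild-type HSC of 32 weeks against young HSC, Gclc was lost with quantile normalization and with the young pair as 1, Txnrd1 was added with the 60th percentile filter, with a trended and robust eBayes and with only the groups compared, and Sod1 with median centring and without wild-type replicate 1 (adjusted p = 0.0304). In mutator against young HSC, Gpx1 was lost with a pseudocount of 1 and with quantile normalization, Txnrd1 without the filter and with only the groups compared, and Gclc, Gpx1 and Txnrd1 with the young pair as 1. In CLP against wild-type HSC of 32 weeks, Cat was lost with a pseudocount of 1, the 60th percentile filter, the trended eBayes and every probe set, and Sod2 and Cat with median centring and with only the groups compared. With quantile normalization 6 members fell there, with all 4 of the main fit kept and Sod1 among those added. The cause was not tested.

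Counts over all genes moved by over 1.5 times as follows. Old against young HSC gave 1037 with only the groups compared, 98 with young replicates 2 and 3 counted as 1 and 94 (without young replicate 2) to 118 with an array left out, against 183. Mutator against wild-type HSC of 32 weeks gave 0 to 231 (without wild-type replicate 2), against 0 (1005 at an unadjusted p under 0.05 by limma). Wild-type HSC of 32 weeks against young HSC gave 2249 with only the groups compared, 2111 with the young pair as 1, 6266 with every probe set and 2119 (without young replicate 2) to 4307 with an array left out, against 3395. Mutator against young HSC gave 1206 with the young pair as 1, 4738 with every probe set and 1205 (without young replicate 3) to 2643 with an array left out, against 2393. The difference of effects gave 40 with the young pair as 1 and 34 (without young replicate 3) to 157 (without wild-type replicate 2), against 74. Ly6D+ against Ly6D- CLP gave 0 with only the groups compared (1033 at an unadjusted p under 0.05 by limma), 730 with every probe set and 313 to 764 (without Ly6D- replicate 1), against 385. CLP gave 7426 with every probe set against young HSC, against 4529, and 1775 with only the groups compared and 7530 with every probe set against wild-type HSC of 32 weeks, against 4158.

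Samples of the same replicate number correlated at -0.18 to 0.50 in their deviations from the group means, over 0.1 in 9 of 18 pairs, and 10 of 18 correlated best with their own number. The numbers were therefore not taken to pair the samples. With the replicate block the members past the threshold were 3 in wild-type HSC of 32 weeks (Txnrd1 added), 4 in mutator HSC and 7 in CLP against young HSC, 4 in CLP against wild-type HSC of 32 weeks (Sod1 in place of Sod2) and 0 elsewhere. Dim probe sets such as that of Hmox1 limit what could be seen.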
